A study of Mus musculus with 6 samples.

Results

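The muscle products mmu-miR-1a-3p, mmu-miR-1b-5p, mmu-miR-133a-3p and mmu-miR-206-3p and the liver products mmu-miR-122-5p and mmu-miR-122b-3p were followed in small RNA libraries of adult mouse brain cortex. They were taken by name from a table of 1182 mature microRNAs (miRNAs), in which these 6 names have 1 row each. The cortices came from male mice that lacked Fmr1 (KO, 3 libraries) or were wild type for it (WT, 3 libraries), matched for age and untreated. Fmr1 encodes the RNA-binding protein FMRP, and the KO has no restriction to a cell type or brain region in the labels. A table of mature miRNAs holds no Fmr1 transcript, so the genotype of each library rests on its label. The labels give neither strain nor age beyond adult, and do not describe how vessels, meninges or blood were removed beyond a wash.

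In heart and skeletal muscle, miR-1 and miR-133a are made from shared primary transcripts and are among the most abundant miRNAs. miR-1 promotes muscle differentiation, and miR-133a acts on proliferation and muscle gene expression. miR-206 is a skeletal muscle relative of miR-1 with the same seed, the stretch near the 5′ end that selects targets, and shares a locus with miR-133b. miR-122 is the dominant miRNA of hepatocytes, where it acts on lipid and cholesterol metabolism. Brain is not known as a main site of any of these, and a cortex preparation also holds vessels, meninges and blood.

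The mature sequences below are shown to let the muscle member whose sequence was taken be compared with other muscle and liver products of the same table. They were read 5′ to 3′ from the RefSeq table of build GRCm38.p6. Sequences were taken for 1 of the 6 members and for 8 of 12 other muscle and liver products. These counts do not show that the RefSeq table lacks the remaining products. Capitals mark the seed, bases 2 to 8.
mmu-miR-206-3p: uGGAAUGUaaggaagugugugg
mmu-miR-133b-3p: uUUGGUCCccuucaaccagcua
mmu-miR-499-5p: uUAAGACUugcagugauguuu
mmu-miR-208b-3p: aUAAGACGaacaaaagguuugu
mmu-miR-192-5p: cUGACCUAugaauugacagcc
mmu-miR-194-5p: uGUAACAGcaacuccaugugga
The seeds of miR-499-5p and miR-208b-3p, both from introns of myosin heavy chain genes, differ at 1 of 7 bases. The other seeds shown differ from these and from each other at 4 or more bases. As background, miR-206 shares its seed with miR-1, and miR-133b shares its seed with miR-133a.

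The libraries held 11182888 to 15733876 summed miRNA reads, and 875 to 914 rows had at least 1 read in a library. Levels are given as CPM, read counts brought to a common library sum after scaling by TMM, a factor that corrects for differences in composition. They describe reads per miRNA and not molecules per cell, and in whole cortex fewer cells of a type cannot be told apart from less RNA per cell. The tissue label was checked against the neuronal miRNAs miR-9-5p, miR-124-3p and miR-128-3p, whose summed level was 281000 to 423200 CPM across the 6 libraries. Nearly all of this sum came from miR-9-5p and miR-128-3p, at ranks 1 and 3 by mean level. miR-124-3p lay far lower, at rank 43, so the check rests on the other neuronal miRNAs and not on miR-124-3p. The KO libraries varied more than the WT libraries, with a median standard deviation of log2 CPM over tested miRNAs of 0.406 in KO and 0.142 in WT.

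Within the group, miR-1a-3p stood far above the others. Its mean level was 234.6 ± 42.7 CPM over the 3 KO libraries and 222 ± 9.45 CPM over the 3 WT libraries (SD), which placed it 108th of 1182 rows by mean level, with 9.05% of rows higher. By contrast miR-122-5p (rank 383), miR-133a-3p (rank 397) and miR-206-3p (rank 420) lay between 2 and 4 CPM on average in each genotype. Of all reads assigned to miR-1a-3p, miR-133a-3p and miR-206-3p, miR-1a-3p took 96.1% to 98.1% in every library. Those 3 miRNAs together made up 0.0174% to 0.0316% of summed miRNA reads, and miR-122-5p 0.000215% to 0.000529%. The summed reads include both rows of near-identical pairs, such as miR-9-5p and miR-9b-3p (ranks 1 and 2, at most 0.355% apart). If the rows of such a pair hold the same reads, the sums are too high, and these shares and the CPM levels too low. For scale, miR-9-5p, the most abundant neural miRNA, had 962, 988 and 973 reads for each miR-1a-3p read in the WT libraries and 646, 1530 and 1070 in KO replicates 1, 2 and 3.

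**Figure D1:**
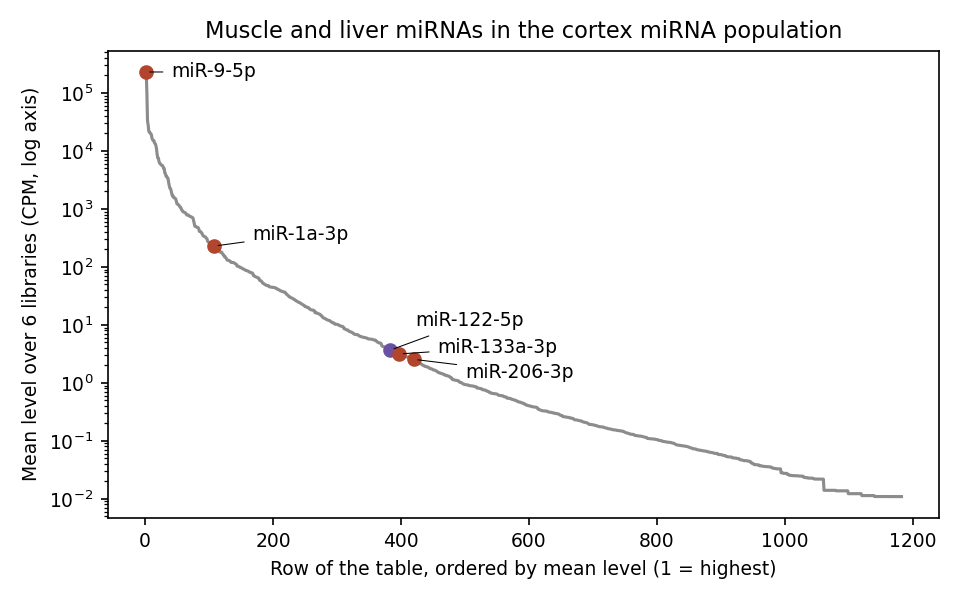
Mean level of each of the 1182 rows over the 6 libraries (CPM, log axis) against its place in the order of levels, with miR-9-5p, the 3 muscle miRNAs and miR-122-5p marked (miR-122-5p in purple). miR-1a-3p lies at rank 108, and miR-122-5p, miR-133a-3p and miR-206-3p lie close together between ranks 383 and 420.

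The 6 rows held 4 separate signals. Reads of miR-1b-5p numbered 4154, 2459 and 2583 in KO replicates 1 to 3 and 3297, 2944 and 3535 in the WT libraries, against 4158, 2459 and 2586 and 3300, 2944 and 3541 for miR-1a-3p. The 2 rows differed by 0 to 6 reads, at most 0.169% of miR-1a-3p. Counts of miR-122b-3p equalled those of miR-122-5p in all 6 libraries, at 71, 31 and 32 reads in KO and 48, 49 and 78 in WT. In the GENCODE M21 annotation of GRCm38, the Mir1b hairpin (chromosome 18, 10785446 to 10785567, plus strand) covers the whole Mir1a-2 hairpin (10785481 to 10785552, minus strand). The name miR-122b likewise denotes the strand opposite miR-122. Since the use of strand in counting is not given in the sources used here, reads of the 2 rows of each pair cannot be told apart, and each pair is treated as 1 signal from here on. The opposite arms showed the same identity, with 9, 0 and 3 reads in KO and 1, 3 and 5 in WT for both miR-1a-2-5p and miR-1b-3p.

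The muscle members come from 3 loci. On chromosome 2, Mir1a-1 (180389048 to 180389124) and Mir133a-2 (180398379 to 180398482) lie on the plus strand, 9254 bases apart, outside other genes of this annotation. The second copies, Mir1a-2 and Mir133a-1 (10782909 to 10782976), lie 2504 bases apart on the minus strand of chromosome 18, within introns of the noncoding host gene Mir133a-1hg and opposite an intron of Mib1, a ubiquitin ligase gene of Notch signalling. Mature miR-1a-3p and miR-133a-3p do not tell which copy they came from. On chromosome 1, Mir206 (20679010 to 20679082) and Mir133b (20682769 to 20682887) lie 3686 bases apart in exons of the long noncoding RNA gene Gm28653, on the plus strand. Mir122 (chromosome 18, 65248861 to 65248926, plus strand) overlaps an exon of the noncoding gene AC157910.3.

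Levels of miR-1a-3p in KO replicates 1, 2 and 3 were 283.8, 206.8 and 213.2 CPM, and in WT 216.3, 216.8 and 232.9 CPM. KO replicate 1 was the highest library and the other KO libraries were the lowest, so the KO values lay on both sides of the WT values. KO replicate 2 was the lowest and KO replicate 1 the highest also on library totals, at 170.9 (95% exact binomial interval 164 to 178) and 309.8 (300 to 319) CPM. The place of KO replicate 3 depended on the scaling, since on library totals it stood at 231.2 CPM, above the 222.6, 222.6 and 225.1 of the WT libraries. The log2 fold change was 0.08 (SE 0.19, 95% interval -0.35 to 0.51, edgeR adjusted p = 0.894), that is 1.06-fold with an interval from 0.785 to 1.42. Without KO replicate 1 the log2 fold change was -0.0669.

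miR-133a-3p, the partner of miR-1 in its primary transcripts, did not follow miR-1a-3p. It had 27, 34 and 66 reads in KO and 49, 35 and 45 in WT, or 1.84, 2.86 and 5.44 CPM in KO replicates 1 to 3 and 3.21, 2.58 and 2.96 CPM in WT. KO replicate 1, the highest library for miR-1a-3p, was the lowest for miR-133a-3p, and KO replicate 3 was the highest, so the groups overlapped. The log2 fold change was 0.20 (SE 0.40, 95% interval -0.70 to 1.11, edgeR adjusted p = 0.882), and -0.308 without KO replicate 3. Reads of miR-1a-3p per miR-133a-3p read were 67.3, 84.1 and 78.7 in WT (76.7 ± 8.56, SD, n = 3) and 154, 72.3 and 39.2 in KO (88.5 ± 59.1, SD, n = 3). The 3 WT ratios lay close together, between the KO extremes. The 5p arm of miR-133a had 11 reads in all, 8 of them in KO replicate 3, where they came to 12.1% of the 3p reads.

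miR-206-3p had 53, 13 and 38 reads in KO and 41, 33 and 35 in WT. These were 3.62, 1.09 and 3.13 CPM in KO replicates 1 to 3 and 2.69, 2.43 and 2.30 CPM in WT. KO replicate 2 was the lowest and the other KO libraries were above all WT libraries. Its log2 fold change was 0.09 (SE 0.42, 95% interval -0.86 to 1.04, edgeR adjusted p = 0.951), and it was -0.209 without KO replicate 1 and -0.029 without KO replicate 3. As a share of miR-1a-3p reads, miR-206-3p came to 1.24%, 1.12% and 0.988% in WT and 1.27%, 0.529% and 1.47% in KO. Mature miR-1 and miR-206 are similar in sequence, the number of mismatches allowed is not given in the sources used here, and whether reads of miR-1a-3p were counted as miR-206-3p was not tested. Its neighbour miR-133b-3p, whose sequence is shown above, had 15 reads in all (4, 1 and 5 in KO, and 1, 2 and 2 in WT), 7.04% of the reads of miR-206-3p.

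**Figure D2:**
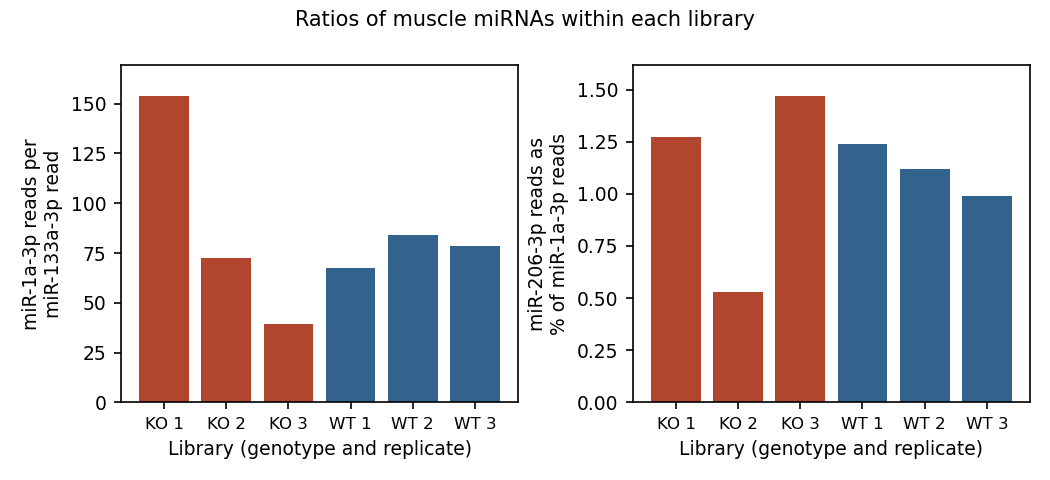
Reads of miR-1a-3p per read of miR-133a-3p (left) and reads of miR-206-3p as a percentage of those of miR-1a-3p (right) in each library, KO in red and WT in blue, with bars from 0. The ratio on the left runs from 39.2 in KO replicate 3 to 154 in KO replicate 1, and the 3 WT libraries lie from 67.3 to 84.1.

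The liver miRNA miR-122-5p stood at 4.85, 2.61 and 2.64 CPM in KO replicates 1 to 3, and WT libraries had 3.15, 3.61 and 5.13 CPM. WT replicate 3 and KO replicate 1 were the highest libraries and KO replicates 2 and 3 the lowest, so 1 KO library lay among the WT values. On library totals KO replicate 1 stood at 5.29 CPM, above the 3.238, 3.705 and 4.957 CPM of the WT libraries. The log2 fold change was -0.23 (SE 0.34, 95% interval -1.002 to 0.55, edgeR adjusted p = 0.882), that is 0.854-fold with an interval from 0.499 to 1.46. It was 0.00425 without WT replicate 3 and -0.581 (edgeR adjusted p = 0.438) without KO replicate 1. The other arm, miR-122-3p, had 1 read, in KO replicate 2. In the other 5 libraries a count of 0 allows up to 0.191 to 0.268 CPM on library totals (3 reads).

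**Figure D3:**
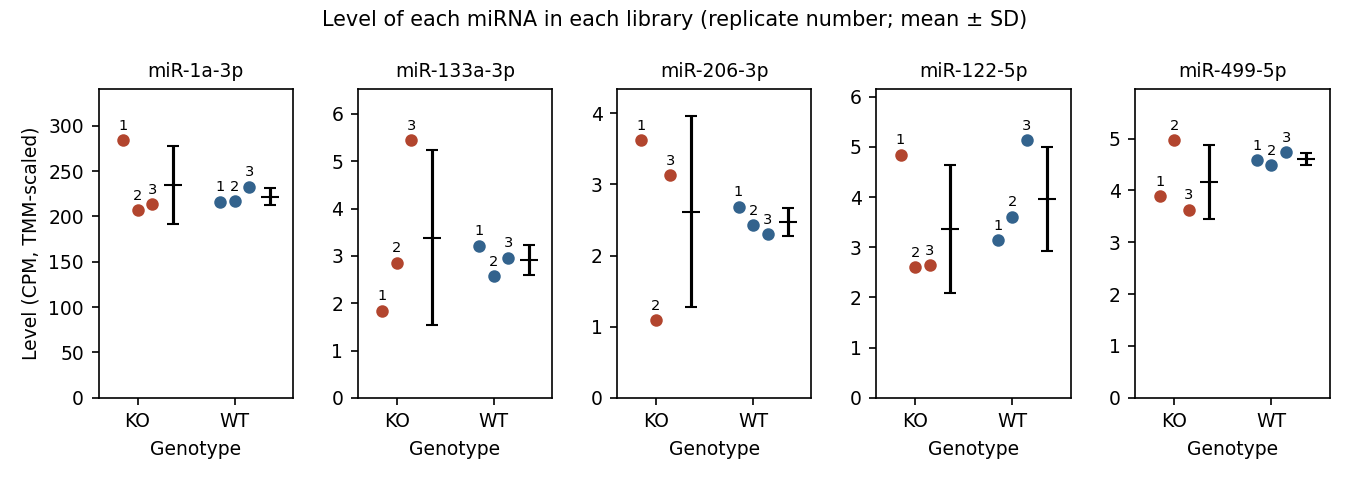
Level (TMM-scaled CPM, axes from 0) of the 4 separate signals and of miR-499-5p in each library, KO in red and WT in blue with the replicate number above each point, and the mean ± SD of 3 libraries beside them. On this scale KO and WT libraries overlap in every panel, which for miR-499-5p does not hold on library totals. KO replicate 1 is high for miR-1a-3p, miR-206-3p and miR-122-5p but lowest for miR-133a-3p.

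All 6 members passed the filter on low counts, and 0 of 6 were called between KO and WT at an adjusted p under 0.05 (edgeR), where 0% of the 541 tested miRNAs were called. Counting each strand pair once, 0 of 4 were called. At an unadjusted p under 0.05 there were 0 of 6 members and 35 of 541 tested miRNAs (6.47%, edgeR), while DESeq2 on all 1182 rows called 0 and had 40 below an unadjusted p of 0.05. KO and WT libraries overlapped in all 6 members, while 15.7% of tested miRNAs had groups that did not overlap. Without KO replicate 3 the number called was 18 of 560 in place of 0 (edgeR), with members' adjusted p-values from 0.628 to 0.974. The intervals are wide for the rarer members, and for miR-133a-3p and miR-206-3p they run from 0.615-fold to 2.16-fold and from 0.549-fold to 2.06-fold. A p that misses the threshold therefore does not show equal levels.

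**Figure D4:**
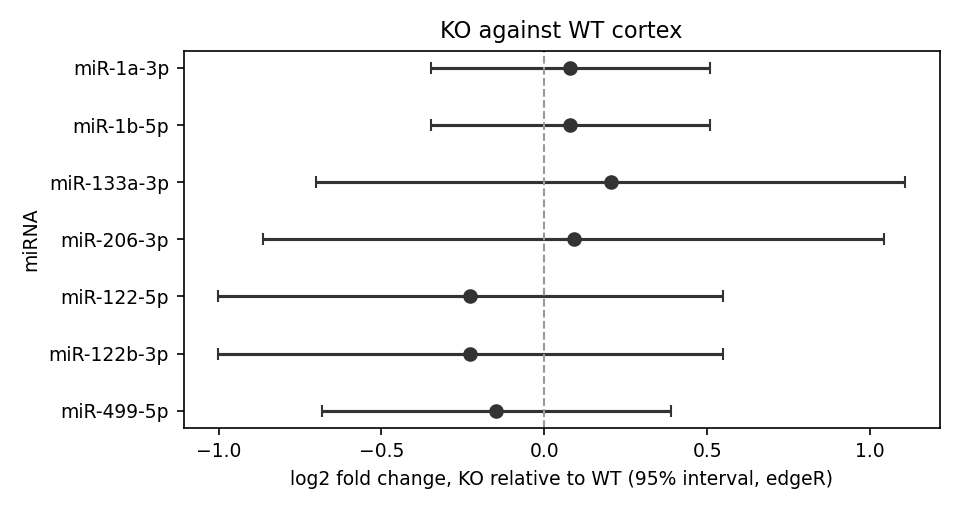
Log2 fold change of each member and of miR-499-5p in KO relative to WT (points) with 95% intervals from the edgeR fit (bars). All 7 intervals include 0, and those of miR-1a-3p and miR-1b-5p, from -0.35 to 0.51, are the narrowest.

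The spread between WT libraries was close to that of read sampling for the rarer muscle members. Counts were compared with those of equal CPM in every library of a genotype by a chi-square value per degree of freedom, which is near 1 when sampling alone varies. In WT it was 0.498 for miR-133a-3p and 0.237 for miR-206-3p, against 4.1 for miR-122-5p and 6.02 for the deeply read miR-1a-3p. Among KO libraries the values were 13.5 for miR-133a-3p, 8.42 for miR-206-3p, 6.49 for miR-122-5p and 105 for miR-1a-3p. As standard deviations of log2 CPM these were 0.252 in KO and 0.0607 in WT for miR-1a-3p, 0.778 and 0.158 for miR-133a-3p, 0.92 and 0.112 for miR-206-3p, and 0.504 and 0.361 for miR-122-5p. The ratio of KO to WT spread was 4.15, 4.93, 8.24 and 1.4 in that order, where the median over all tested miRNAs was 2.64. A wider spread in KO is thus also found over the whole table, and whether the members exceed it was not tested.

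Among other muscle products, 7 of 14 listed names have a row in the table. Only miR-499-5p, which lies in an intron of the myosin gene Myh7b (Mir499, chromosome 2, 155622880 to 155622958) and is known from heart and slow muscle, passed the count filter. It had 57, 59 and 44 reads in KO and 70, 61 and 72 in WT, or 3.89, 4.96 and 3.63 CPM and 4.59, 4.49 and 4.74 CPM. The groups overlapped, with KO replicate 2 the highest library and KO replicates 1 and 3 the lowest. Its log2 fold change was -0.15 (SE 0.23, edgeR adjusted p = 0.882), and it varied little, with a chi-square value per degree of freedom of 1.47 in KO and 0.0476 in WT. It did not share the low value of miR-206-3p in KO replicate 2. The heart products miR-208a-5p and miR-208b-3p, from introns of Myh6 and Myh7, had 1 read each, in KO replicate 3 and KO replicate 2. Of the 14 listed names 1 was tested, and it was not called, like the 541 tested miRNAs as a whole (0%, edgeR).

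Among other liver products, 5 of 7 listed names have a row and 2 passed the count filter. miR-192-5p, which liver shares with gut and kidney, stood at 265.4, 248.3 and 194.1 CPM in KO libraries, and WT libraries had 234.6, 259.3 and 251.6 CPM. It thus had 49 to 95.2 reads for each read of miR-122-5p. Its log2 fold change was -0.07 (SE 0.18, edgeR adjusted p = 0.894). Its cluster partner miR-194-5p averaged 44.06 ± 5.67 CPM over 3 KO libraries and 44.51 ± 2.99 CPM over 3 WT libraries (SD), with a log2 fold change of -0.01 (SE 0.18, edgeR adjusted p = 0.992). After TMM scaling both were lowest in KO replicate 3, a place that depended on the scaling, and neither was called. The rare arms miR-194-2-3p (33 reads in all) and miR-192-3p (8 reads in all) did not pass the filter and were not tested. Counts of miR-194-2-3p were 6, 2 and 3 in KO and 9, 6 and 7 in WT. Its groups did not overlap in TMM-scaled CPM (0.41, 0.17 and 0.25 in KO, and 0.59, 0.44 and 0.46 in WT). On library totals they did overlap. In TMM-scaled CPM, groups also did not overlap in 15.7% of the tested miRNAs (85 of 541), so this separation is not read as a difference between genotypes.

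Arms other than the main product had few reads. miR-1a-2-5p had 21 reads, 0.111% of the reads of miR-1a-3p. Reads of miR-1a-3p can also come from Mir1a-1, so this is not the ratio of 1 hairpin. miR-122-3p came to 0.324% of miR-122-5p. miR-133a-5p reached 4.3% of miR-133a-3p over all libraries, on 11 reads, and 12.1% in KO replicate 3.

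Across the 6 libraries, the level of miR-1a-3p ran with that of miR-122-5p and against that of miR-133a-3p. Pearson's r of log2 CPM, given as a description over 6 libraries that share their depth and scaling, was 0.771 with miR-122-5p, 0.581 with miR-206-3p and -0.675 with miR-133a-3p. That of miR-133a-3p with miR-206-3p was 0.00299. The rows most like miR-1a-3p among 535 others that passed the filter were miR-28a-3p (r = 0.972), miR-181a-2-3p (r = 0.97) and miR-30c-2-3p (r = 0.967). All 3 were highest in KO replicate 1, such as miR-30c-2-3p at 107.8 CPM there and 57.78 to 73.02 CPM in the other libraries. The rows most like miR-122-5p were miR-216b-5p (r = 0.948), miR-423-5p (r = 0.923) and miR-935 (r = 0.916). miR-216b-5p, known from pancreas, stood at 2.39, 1.18 and 1.07 CPM in KO libraries, and WT libraries had 1.51, 1.47 and 3.75 CPM. Like miR-122-5p it was highest in WT replicate 3 and KO replicate 1. All of these rows were picked for likeness over the same 6 libraries, so sharing the highest libraries is not separate evidence.

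Summed levels of miRNAs from other tissues and cell types are given beside these, and their part in the members' levels was not tested. Erythroid miRNAs, with the near-identical rows miR-486a-5p and miR-486b-3p counted once (5 rows), summed to 155.1, 122.8 and 159.1 CPM in KO libraries against 121.1, 126.4 and 122.2 CPM in WT libraries, highest in KO replicates 3 and 1. With both of these rows included the order of the libraries changed, to 209.7, 164.9 and 197.4 CPM in KO libraries and 165.9, 168 and 166.6 CPM in WT libraries. Their most abundant member, miR-486a-3p, averaged 45.55 ± 9 CPM over 3 KO libraries and 44.75 ± 1.52 CPM over 3 WT libraries (SD). Mural and endothelial miRNAs, led by miR-143-3p of vascular smooth muscle, summed to 44250, 44570 and 38490 CPM in KO libraries against 36720, 35240 and 42580 CPM in WT libraries. After TMM scaling they were about as high in KO replicate 1 as in KO replicate 2, the libraries highest and lowest in miR-1a-3p. This closeness depended on the scaling, since on library totals KO replicate 1 stood above KO replicate 2. Whether these sums run with miR-1a-3p was not tested. The pancreatic list of miR-216a-5p, miR-216b-5p and miR-217-5p summed to 3.87 to 12.04 CPM, highest in WT replicate 3 and next in KO replicate 1. That list holds miR-216b-5p, already picked above for its likeness to miR-122-5p, so this order is not separate evidence. Epithelial miRNAs, led by miR-200a-3p, summed to 101.6, 990.8 and 1024 CPM in KO libraries against 168.5 to 376.9 CPM in WT libraries, lowest in KO replicate 1. Choroid plexus and multiciliated miRNAs, led by miR-204-5p, summed to 2119 CPM in KO replicate 3, where miR-133a-3p was highest, and to 972.5 to 1047 CPM in the other 5 libraries.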

How the data were processed

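Small RNA was sequenced as single-end reads from total RNA of whole cortex, and biological replicates were handled in parallel, per the labels' protocols. Whether each library is a separate animal is not stated, so p-values measure the spread between these libraries. The submitters' processing notes list Bowtie, DESeq2 and mm10, giving neither version nor role. How reads were trimmed, how mismatches and multiple matches were treated and whether strand was used is not given in the sources used here. Per the file headers, the authors deposited unscaled read counts, in whole numbers, by mature miRNA. The deposited TPM values equal count over column total, scaled to a common sum (largest deviation 4.9e-10), and were not tested. Columns were matched to titles by number, and 0 value columns lacked a sample. Library pairs within a genotype differed beyond sampling, and more so in KO (chi-square per degree of freedom 47.7 to 59.6 in WT and 590 to 991 in KO).

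Counts were fitted in edgeR 4.0.16 (R 4.3.3): filterByExpr with a minimum count of 10 (541 rows left), TMM factors from 0.8265 to 1.092, robust quasi-likelihood test, Benjamini-Hochberg adjustment over 541 rows, threshold 0.05. The procedure was run on simulated counts with the same spread set for both genotypes. In the data the median ratio of KO to WT spread was 2.64, so that run does not measure error rates here. Alternatives were DESeq2 1.42.0, RLE size factors, library totals, no filter, near-identical rows (within 3% in every library, at least 200 reads) counted once, and leaving out each library. Log2 CPM for spread and correlations used 0.5 added reads. Binomial intervals and limits of a count of 0 cover counting error only, since reads are not unique molecules. The members, lists and the rule for named miRNAs (all members, all listed muscle and liver products with reads, the 3 rows most like miR-1a-3p and miR-122-5p, each other list's sum and top member) were chosen with earlier results of these data known.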

Additional observations from a re-analysis of the deposited data

How the results depend on the processing

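No member passed the threshold under any alternative run, with adjusted p-values of at least 0.438 (edgeR or DESeq2). With RLE size factors, library totals, no filter, DESeq2 or near-identical rows counted once, log2 fold changes kept their sign and ranged from 0.0871 to 0.104 for miR-1a-3p, 0.0872 to 0.104 for miR-1b-5p, 0.207 to 0.25 for miR-133a-3p, 0.0933 to 0.132 for miR-206-3p and -0.228 to -0.208 for miR-122-5p, and the number of miRNAs called stayed at 0. Mean levels moved by less than 1 SD with either other scaling. With a library left out, the number called ranged from 0 to 18, the latter without KO replicate 3. Ranges of log2 fold changes were -0.0669 to 0.157 for miR-1a-3p, -0.0665 to 0.158 for miR-1b-5p, -0.308 to 0.522 for miR-133a-3p, -0.209 to 0.403 for miR-206-3p and -0.581 to 0.00425 for miR-122-5p and miR-122b-3p. The sign turned without KO replicate 1 for miR-1a-3p, miR-1b-5p (-0.0665) and miR-206-3p, without KO replicate 3 for miR-133a-3p (-0.308) and miR-206-3p (-0.029), and without WT replicate 3 for miR-122-5p and miR-122b-3p (0.00425). In each case the library left out held an extreme value of that miRNA or one next to it. The replicate numbers follow accession order and pair no libraries. With 13 to 78 reads per library, miR-133a-3p, miR-206-3p and miR-122-5p are limited by depth as well as by 3 libraries per genotype.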
